A study of Arabidopsis thaliana with 8 samples.

Results

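Transcripts of serk1-1 seeds imbibed without NaCl were compared with those of Col-0 wild-type seeds imbibed in 200 mM NaCl, to see which transcripts of the unsalted mutant lay at, above or below their level in the salted wild type. Genes were included where both libraries of at least 1 of these groups had at least 1 FPKM, read fragments scaled by transcript length and by the mapped fragments of the library. This gave 14382 of the 33279 genes in the table. Of them, 13052 reached 1 FPKM in both groups, 521 only in unsalted serk1-1 and 809 only in salted Col-0. At the edge of this limit, AT1G01355 was included with 1 and 1.11 FPKM in unsalted serk1-1, and MYB7 was not, with 0.65 and 1.01 FPKM in unsalted serk1-1 and 1.25 and 0.99 FPKM in salted Col-0.

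Each group had 2 libraries from separate seed samples, which the labels call biological replicates. All seeds were Arabidopsis thaliana labelled as ecotype Columbia-0, imbibed for 24 h in liquid half-strength Murashige and Skoog medium. The groups were serk1-1 without NaCl, Col-0 with NaCl, serk1-1 with NaCl and Col-0 without NaCl, 8 libraries in all. The comparison crosses genotype and salt, so that the effects of mutation and of salt cannot be told apart within it. Values of serk1-1 with NaCl and of Col-0 without NaCl are therefore given beside it where they place a transcript. The labels do not state the kind of mutation in serk1-1 or how many lines were used.

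SERK1 encodes a leucine-rich repeat receptor kinase, named for somatic embryogenesis, that acts as a co-receptor beside ligand-binding receptor kinases. A dry seed holds transcripts made during maturation, among them those for storage proteins, oil body proteins and late embryogenesis abundant (LEA) proteins, which protect dried cells. On imbibition of a seed that will germinate these decline, while abscisic acid (ABA) and osmotic stress by salt hold germination back.

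SERK1 itself had 1.53 and 1.40 FPKM in unsalted serk1-1, against 2.40 and 1.06 FPKM in salted Col-0. These low values overlapped, and the log2 difference was -0.10 with a 95% interval from -0.88 to 0.68, so the transcript level neither separates the genotypes nor checks their labels. The 2 libraries of unsalted serk1-1 correlated with r = 0.977 across genes and those of salted Col-0 with r = 0.953, and correlations between the groups were 0.873 to 0.940. FPKM summed to 891928 and 901215 in unsalted serk1-1 and to 821076 and 821247 in salted Col-0. The table holds no read counts, so the depth is unknown. The replicates of salted Col-0 differed widely in a list of heat shock chaperones and some transcription factors. Its 19 genes summed to 2622 and 1618 FPKM in unsalted serk1-1, against 1897 FPKM in replicate 1 and 10387 FPKM in replicate 2 of salted Col-0.

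Of the 14382 genes, 790 were higher and 1235 lower in unsalted serk1-1 than in salted Col-0, which is 5.49% and 8.59% of them, or 14.1% together. The calls are from limma on log2(FPKM + 1) in a fit of all 8 libraries with the p-values of 15336 tested genes adjusted by Benjamini-Hochberg and a threshold of 0.05, and log2 differences are on that scale throughout, positive where unsalted serk1-1 was higher. The difference was at least 4-fold for 44 of the higher and 227 of the lower genes. The calls include 56 higher genes that entered only through unsalted serk1-1 and 190 lower genes that entered only through salted Col-0. A 95% interval of the difference wholly within 2-fold was found for 3974 genes, 3 of them also called, which is 40.7% of the 9765 genes whose means reached 5 FPKM in both groups. These genes lay at the level of the salted wild type within that margin. A further 4418 of those 9765 genes were neither called nor bounded by 2-fold.

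The median log2 difference over all genes tested was -0.17, and 0.01 once libraries were scaled by median of ratios or quantile-normalized. With quantile normalization 1496 genes were higher and 1554 lower. The counts also rested on single libraries. Without replicate 2 of unsalted serk1-1, 0 genes were higher and 3 lower by limma (TSO2, SMR7 and AT2G01422), with 2701 genes at an unadjusted p under 0.05 against 5016 in the full fit. Without replicate 1 of unsalted serk1-1 the counts were 159 and 362. Without replicate 1 of salted Col-0 they were 45 and 114, and without replicate 2 they were 571 and 1348. None of the 83 called genes among those examined by name changed its direction under any alternative. This says little about how stable the calls were, because leaving out a library cannot reverse a direction where values do not overlap. Values of the groups did not overlap for 3599 genes that were higher (25%) and 4993 that were lower (34.7%).

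**Figure D1:**
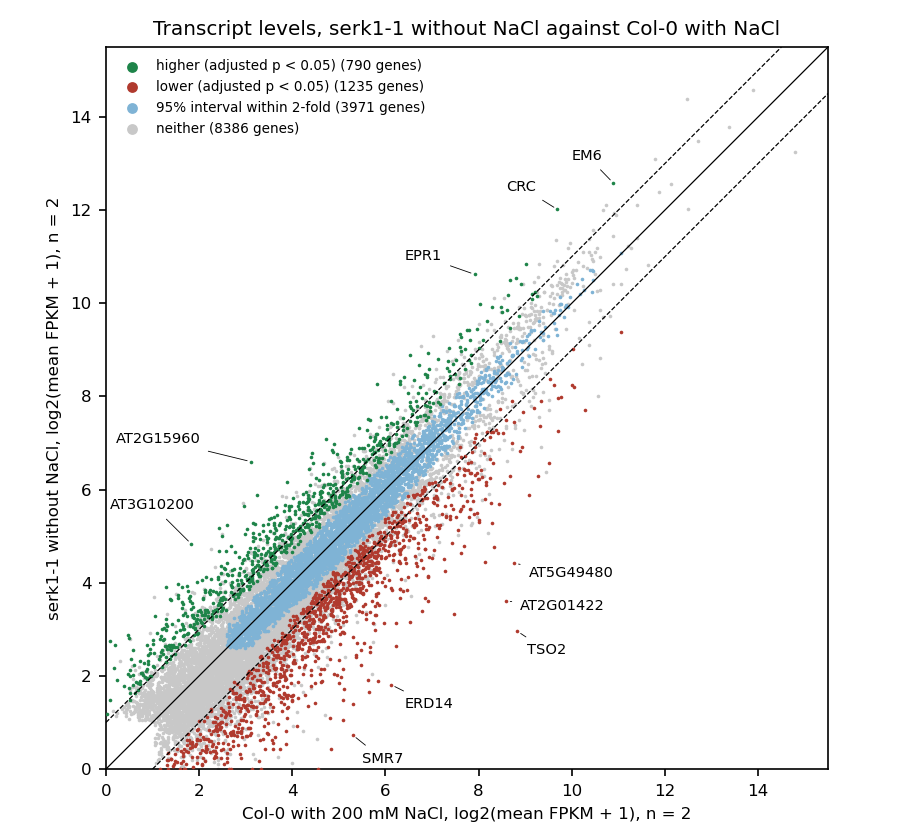
Mean transcript level of 14382 genes in serk1-1 without NaCl (vertical axis) and in Col-0 with 200 mM NaCl (horizontal axis), both as log2(mean FPKM + 1) of 2 libraries, with the solid line at equal levels and dashed lines at a 2-fold difference. The 790 higher and 1235 lower genes lie on either side of the 3971 genes bounded by 2-fold that were not called, and TSO2 and AT2G01422 lie far below the lines.

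On each of the 5 nuclear chromosomes 5.26% to 6.12% of genes were higher and 7.84% to 9.34% lower. Among genes with a mean of over 100 FPKM, 170 of 1805 were higher and 173 lower, and among those with 20 to 100 FPKM, 338 of 4781 were higher and 568 lower. The shares were smaller in genes of lower level, with 225 of 4939 higher and 378 lower at 5 to 20 FPKM, and 57 of 2857 higher and 116 lower under 5 FPKM. Of small nuclear RNA genes, 3 of 9 were higher and 0 lower, and of small nucleolar RNA genes 2 of 6 were higher and 0 lower. Larger classes of non-coding RNA also leaned higher. Of long non-coding RNA genes 11 of 101 were higher and 1 lower, and of genes annotated only as non-coding RNA 10 of 73 were higher and 4 lower.

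Genes of the DNA damage response made up the gene list with the most lower calls. In plants this response is switched on by the transcription factor SOG1 and raises DNA repair enzymes, enzymes that supply nucleotides, and inhibitors of the cell cycle. Of 24 genes listed, 20 were counted, and 11 of them were lower and 0 higher in unsalted serk1-1. The median log2 difference of the list was -2.06, against -0.15 over all genes counted. The list, like the others below, was drawn up with earlier results of these data known. The shares to set beside each list are 5.49% higher and 8.59% lower of all counted genes. Within 2-fold lay 40.7% of the genes whose means reached 5 FPKM in both groups.

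TSO2, which encodes a small subunit of ribonucleotide reductase, had 10 and 3.58 FPKM in unsalted serk1-1, against 438 and 469 FPKM in salted Col-0. SMR7, an inhibitor of cyclin-dependent kinases, had 1.05 and 0.27 FPKM in unsalted serk1-1, against 39.1 and 37.6 FPKM in salted Col-0. The log2 differences were -6.00 ± 0.43 (SE, limma adjusted p 0.0042) for TSO2 and -4.61 ± 0.32 (limma adjusted p 0.0042) for SMR7. In both, the groups lay far apart and the other libraries followed genotype: TSO2 had 11.1 and 5.86 FPKM in serk1-1 with NaCl, against 289 and 389 FPKM in Col-0 without NaCl.

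The thymidine kinase gene TK1A had 3.21 and 2.17 FPKM in unsalted serk1-1, against 39.2 and 72.9 FPKM in salted Col-0 (log2 difference -3.90 ± 0.38, limma adjusted p 0.0066). PARP2, a poly(ADP-ribose) polymerase that acts at DNA breaks, had 3.92 and 2.15 FPKM in unsalted serk1-1, against 28.5 and 31.8 FPKM in salted Col-0 (-2.98 ± 0.26, limma adjusted p 0.0052). The mitotic cyclin gene CYCB1;1 had 1.76 and 1.55 FPKM in unsalted serk1-1, against 14.3 and 28.7 FPKM in salted Col-0 (-3.01 ± 0.37, limma adjusted p 0.0093). Further lower genes were the recombination gene RAD54 (-1.74), XRI1 (-2.26), GMI1 (-2.25), PARP1 (-2.12) and the checkpoint gene RAD17 (-1.90). In 18 of the 20 counted genes, the 11 called among them, values lay wholly lower in unsalted serk1-1, against 34.7% of all counted genes.

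The regulator genes SOG1 and ATM moved less. SOG1 had 8.28 and 6.21 FPKM in unsalted serk1-1, against 11.3 and 11.1 FPKM in salted Col-0, a log2 difference of -0.57 (limma adjusted p 0.12). The kinase gene ATM, which acts above SOG1, had 5.73 and 8.46 FPKM in unsalted serk1-1, against 3.26 and 5.25 FPKM in salted Col-0, with an interval of the log2 difference from -0.06 to 1.32. The differences of BRCA1 and SMR5 were the middle ones of the list and so set its median. BRCA1 had 0.13 and 0.37 FPKM in unsalted serk1-1, against 2.00 and 8.16 FPKM in salted Col-0 (-2.07, limma adjusted p 0.073). SMR5 had 5.94 and 11.9 FPKM in unsalted serk1-1, against 25.9 and 55.2 FPKM in salted Col-0 (-2.04, limma adjusted p 0.063). In neither did the groups overlap, and neither passed the test. PARP3, the family member of dry seeds, was alone in the list in lying within 2-fold, with 183 and 183 FPKM in unsalted serk1-1 and 206 and 184 FPKM in salted Col-0.

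Without replicate 2 of unsalted serk1-1, 2 of the 11 calls remained, and without any other single library 9 to 11 remained. Among the genes of DNA replication and the cell cycle, 8 of 25 were counted and 3 were lower. They were the ribonucleotide reductase genes RNR1 (21.7 and 15.3 FPKM in unsalted serk1-1, against 55.2 and 53.6 FPKM in salted Col-0, -1.53) and RNR2A (-1.39), and E2FC (-1.23). CDKA;1, the main cyclin-dependent kinase, lay within 2-fold with 69.7 and 69.5 FPKM in unsalted serk1-1 and 57.7 and 63.3 FPKM in salted Col-0.

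The 250 bases before the annotated gene start were read for the counted genes from RefSeq TAIR10.1 and searched on both strands for the palindrome CTTNNNNNNNAAG, which SOG1 is known to bind. It was found in 5 of 20 promoters of the DNA damage list (25%), against 8.62% of 14348 promoters of counted genes. In the mitochondrial stress list described below it was found in 5 of 10 promoters (50%). Among all counted genes it was found in 7.47% of the promoters of higher and 11.9% of those of lower genes. Promoters of SMR7 and PARP2 are shown because both genes were lower and hold a match, given in capitals.
SMR7 (chr3:10231568-10231817, minus strand): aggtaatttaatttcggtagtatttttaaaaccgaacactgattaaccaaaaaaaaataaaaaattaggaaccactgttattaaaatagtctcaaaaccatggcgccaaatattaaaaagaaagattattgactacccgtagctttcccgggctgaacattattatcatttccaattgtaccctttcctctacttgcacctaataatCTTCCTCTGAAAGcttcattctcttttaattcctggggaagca
PARP2 (chr4:1049516-1049765, plus strand): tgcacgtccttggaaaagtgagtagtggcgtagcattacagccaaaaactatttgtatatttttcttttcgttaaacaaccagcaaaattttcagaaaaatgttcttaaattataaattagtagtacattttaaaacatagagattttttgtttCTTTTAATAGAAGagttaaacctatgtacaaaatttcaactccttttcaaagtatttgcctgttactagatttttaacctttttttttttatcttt

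Transcripts of the mitochondrial stress response were also lower. These genes are raised when mitochondrial respiration is impaired, through the membrane-bound transcription factors ANAC013 and ANAC017. Of 15 genes listed 10 were counted, and 6 were lower and 0 higher in unsalted serk1-1, with a median log2 difference of -2.20. All 10 lay wholly lower in unsalted serk1-1, as did 34.7% of all counted genes.

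AOX1A, the alternative oxidase, had 2.42 and 0.85 FPKM in unsalted serk1-1, against 58.1 and 18.4 FPKM in salted Col-0 (-3.75 ± 0.60, limma adjusted p 0.015). The glycosyltransferase gene UGT74E2 had 32.9 and 19.3 FPKM in unsalted serk1-1, against 355 and 283 FPKM in salted Col-0 (-3.60 ± 0.34, limma adjusted p 0.0058). The cytochrome P450 gene CYP81D8 had 5.01 and 3.66 FPKM in unsalted serk1-1, against 44.7 and 36.2 FPKM in salted Col-0 (-2.96 ± 0.23, limma adjusted p 0.0049). In these genes salted Col-0 had the highest mean of the 4 groups and unsalted serk1-1 the lowest. AOX1A in salted Col-0 overlapped its values in Col-0 without NaCl (20.2 and 10.3 FPKM). UGT74E2 had 62.4 and 37.2 FPKM in serk1-1 with NaCl, and 98.6 and 129 FPKM in Col-0 without NaCl.

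AT2G21640, annotated as a marker of oxidative stress (-2.98), the NAD(P)H dehydrogenase gene NDB2 (-1.41) and ANAC013 (-1.62) were the other lower genes. ANAC013 had 41.4 and 32.5 FPKM in unsalted serk1-1, against 105 and 127 FPKM in salted Col-0. ANAC017 was bounded by 2-fold, with 45.5 and 36.7 FPKM in unsalted serk1-1 and 55.1 and 46.1 FPKM in salted Col-0. Without replicate 2 of unsalted serk1-1, 0 of the 6 calls remained, without replicate 1 of salted Col-0 3 remained, and without any other library 4 to 6.

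The mitochondrial dysfunction motif, to which ANAC013 is known to bind, was searched as CTTGNNNNNCAAG or CTTGNNNNNCACG on both strands. Any match to its first form is also a match to the SOG1 palindrome. The motif was found in 6 of 10 promoters of the list (60%), against 0.864% of all counted genes. The list holds genes known to be raised through ANAC013 and ANAC017, so its share says nothing about these libraries. Among all counted genes the motif was found in 0.380% of the promoters of higher and 1.54% of those of lower genes. In the promoters of CYP81D8 and NDB2, shown because both genes were lower and hold a match, the capitals mark it.
CYP81D8 (chr4:17571744-17571993, minus strand): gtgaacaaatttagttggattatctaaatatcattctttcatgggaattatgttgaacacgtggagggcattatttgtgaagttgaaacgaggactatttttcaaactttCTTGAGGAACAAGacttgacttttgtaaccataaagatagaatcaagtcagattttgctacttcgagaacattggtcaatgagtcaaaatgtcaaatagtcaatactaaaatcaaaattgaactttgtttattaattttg
NDB2 (chr4:2572177-2572426, plus strand): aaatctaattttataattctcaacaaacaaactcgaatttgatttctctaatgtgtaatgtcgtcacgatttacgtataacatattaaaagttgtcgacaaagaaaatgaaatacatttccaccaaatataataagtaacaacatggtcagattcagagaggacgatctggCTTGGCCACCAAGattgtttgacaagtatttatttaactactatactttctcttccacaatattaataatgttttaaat

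**Figure D2:**
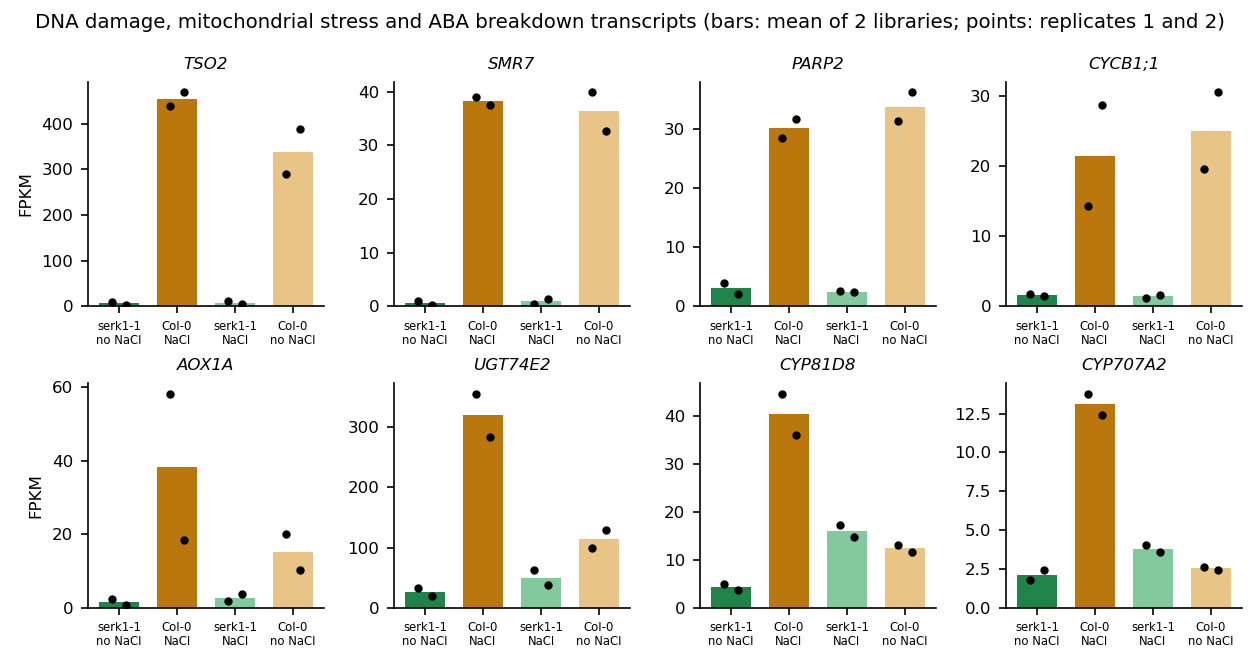
FPKM (vertical axes, from 0) of 8 genes in serk1-1 without NaCl, Col-0 with NaCl, serk1-1 with NaCl and Col-0 without NaCl, with bars at the mean of 2 libraries and a point for each library. The DNA damage genes TSO2, SMR7, PARP2 and CYCB1;1 are low in both serk1-1 groups, whereas in AOX1A, UGT74E2, CYP81D8 and CYP707A2 salted Col-0 has the highest mean.

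CYP707A2, the ABA 8'-hydroxylase that removes ABA in imbibed seeds, had 1.77 and 2.44 FPKM in unsalted serk1-1, against 13.8 and 12.4 FPKM in salted Col-0 (-2.19 ± 0.24, limma adjusted p 0.0078). The other libraries were also low, with 4.06 and 3.58 FPKM in serk1-1 with NaCl and 2.64 and 2.44 FPKM in Col-0 without NaCl. ABA3, which makes a cofactor of ABA synthesis, was lower too, with 6.68 and 5.73 FPKM in unsalted serk1-1, against 14.4 and 12.6 FPKM in salted Col-0 (-1.01, limma adjusted p 0.032). Of 14 genes of ABA metabolism 8 were counted, 2 were lower and 0 higher, and ABA1, zeaxanthin epoxidase, lay within 2-fold.

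NCED9, which makes the ABA precursor xanthoxin in seeds, had 15.2 and 3.54 FPKM in unsalted serk1-1, against 20.9 and 16.5 FPKM in salted Col-0, and did not pass the test (-1.19, limma adjusted p 0.20). Among 27 counted genes of ABA signalling, of 32 listed, 1 was lower, 3 were higher and 7 lay within 2-fold. The list's median log2 difference was -0.16, and 0.04 after median-of-ratios scaling. The lower gene was HAI3, a clade A protein phosphatase that inhibits ABA signalling, with 2.53 and 1.06 FPKM in unsalted serk1-1, against 54.3 and 11.3 FPKM in salted Col-0 (-3.27 ± 0.79, limma adjusted p 0.039). ABI1, of the same clade, had 4.55 and 2.87 FPKM in unsalted serk1-1, against 40.5 and 10.9 FPKM in salted Col-0, and did not pass (limma adjusted p 0.056).

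The 3 higher genes were the bZIP factor genes ABF4 and ABF1, which bind ABA-responsive promoters, and AFP3, of a family that binds ABI5. ABF4 had 25.7 and 25.8 FPKM in unsalted serk1-1, against 9.05 and 7.39 FPKM in salted Col-0 (1.54 ± 0.24, limma adjusted p 0.015), with no overlap. ABF1 differed by 1.13 and AFP3 by 1.47. HAI3 and these 3 genes lost their calls without replicate 1 of salted Col-0 or without either replicate of unsalted serk1-1, and HAI3 also without either library of Col-0 without NaCl.

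The seed transcription factors ABI3 and ABI5, which act with ABA in maturation, did not pass. ABI3 had 157 and 124 FPKM in unsalted serk1-1, against 205 and 171 FPKM in salted Col-0 (interval of the log2 difference -0.91 to 0.07), which bounds it by 2-fold. ABI5 had 84.0 and 63.7 FPKM in unsalted serk1-1, inside the range of 135 and 46.9 FPKM in salted Col-0. ABI4 had 52.7 and 29.2 FPKM in unsalted serk1-1, against 63.5 and 83.8 FPKM in salted Col-0 (-0.88, limma adjusted p 0.15). The receptor genes PYL5 and PYL9, the kinase gene SNRK2.2 and the phosphatase gene HAB1 lay within 2-fold, as did PYL2 and PYL8.

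Of 19 genes of the osmotic stress response 12 were counted, 3 were lower and 1 higher, with a median log2 difference of -0.97. DREB2A, a transcription factor of drought and heat stress, had 122 and 64.4 FPKM in unsalted serk1-1, against 256 and 373 FPKM in salted Col-0 (-1.79, limma adjusted p 0.036). The zinc finger gene ZAT10 (-1.74) and ERD5, proline dehydrogenase (-1.43), were lower. RD29B, a desiccation protein gene of ABA response, was higher, with 135 and 113 FPKM in unsalted serk1-1, against 66.1 and 44.9 FPKM in salted Col-0 (1.16, limma adjusted p 0.041). The calls thus went both ways, but they depended on the processing and on single libraries. In a fit of only the groups compared 0 genes of the list were higher and 3 lower, and with every gene above 0 tested 0 and 2. With median-of-ratios scaling 1 of the 3 lower calls was kept.

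Of the storage transcripts, 4 were higher than in the salted wild type, 2 were bounded by 2-fold and 11 were left undecided. The 18 genes for seed storage proteins and oil body proteins summed to 33204 and 56354 FPKM in unsalted serk1-1, 3.72% and 6.25% of the library totals. In salted Col-0 they summed to 10072 and 22294 FPKM, 1.23% and 2.71%. Of 17 counted genes 0 were lower, and 16 had a positive log2 difference, with a median of 1.00 (1.21 with median-of-ratios scaled values, 0.95 with quantile normalization). Replicate 2 had the higher sum in both groups.

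CRC, which encodes a cruciferin of the 12S globulins, had 2713 and 5548 FPKM in unsalted serk1-1, against 486.96 and 1164.94 FPKM in salted Col-0 (2.36 ± 0.59, limma adjusted p 0.041). OLEO3, an oleosin that coats oil bodies, had 46.4 and 57.2 FPKM in unsalted serk1-1, against 16.3 and 21.5 FPKM in salted Col-0 (1.41 ± 0.22, limma adjusted p 0.014). The 2S albumin genes SESA2 (1.24) and SESA4 (0.98) were the other higher genes. CRA1, another cruciferin, had 14593 and 27896 FPKM in unsalted serk1-1, against 2627 and 8733 FPKM in salted Col-0, a log2 difference of 2.07 that did not pass (limma adjusted p 0.12).

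SESA1 and SESA3 lay within 2-fold: SESA3 had 1904 and 1469 FPKM in unsalted serk1-1 and 1296 and 1455 FPKM in salted Col-0, without overlap. With median-of-ratios scaling 0 storage genes lay within 2-fold, and with quantile normalization 3. Members of the CRA and SESA families are similar in sequence, so their separate values are uncertain. In 14 of 17 genes the values of unsalted serk1-1 lay wholly above those of salted Col-0, against 25% of all counted genes. Without replicate 2 of unsalted serk1-1 or replicate 1 of salted Col-0, 0 of the 4 calls remained, and without any other library 1 to 3. Seeds were sequenced whole, so fewer cells of a type and less RNA per cell cannot be told apart.

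Of 25 LEA genes 21 were counted, 5 were higher, 2 lower and 2 within 2-fold, with a median log2 difference of 0.46 that was 0.03 after quantile normalization. The higher calls depended on the processing, and the calls in both directions rested on single libraries. In a fit of only the groups compared 1 higher and 2 lower calls remained, and with every gene above 0 tested 2 and 2. EM6, a group 1 LEA protein of the dry seed, had 4827 and 7438 FPKM in unsalted serk1-1, against 1518 and 2275 FPKM in salted Col-0 (1.69 ± 0.44, limma adjusted p 0.047). EM1, of the same group, had 812 and 1111 FPKM in unsalted serk1-1, against 430 and 286 FPKM in salted Col-0 (1.43 ± 0.28, limma adjusted p 0.025). SAG21 (1.75), RAB28 (0.97) and the dehydrin gene XERO1 (0.93) were also higher. In EM6, EM1 and XERO1 both serk1-1 groups lay above both Col-0 groups; in SAG21 salted Col-0 was the lowest group.

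The 2 lower LEA genes were dehydrins of vegetative tissue under cold and drought. ERD14 had 2.93 and 2.09 FPKM in unsalted serk1-1, against 89.6 and 47.5 FPKM in salted Col-0 (-4.25 ± 0.34, limma adjusted p 0.0049), and it was low in serk1-1 with NaCl as well, at 6.12 and 4.41 FPKM. LTI30 had 38.9 and 14.7 FPKM in unsalted serk1-1, against 259 and 152 FPKM in salted Col-0 (-2.99, limma adjusted p 0.021). RAB18, the dehydrin used as a marker of ABA response, had 5217 and 6900 FPKM in unsalted serk1-1, against 3437 and 5520 FPKM in salted Col-0, which overlapped (0.46, limma adjusted p 0.55).

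**Figure D3:**
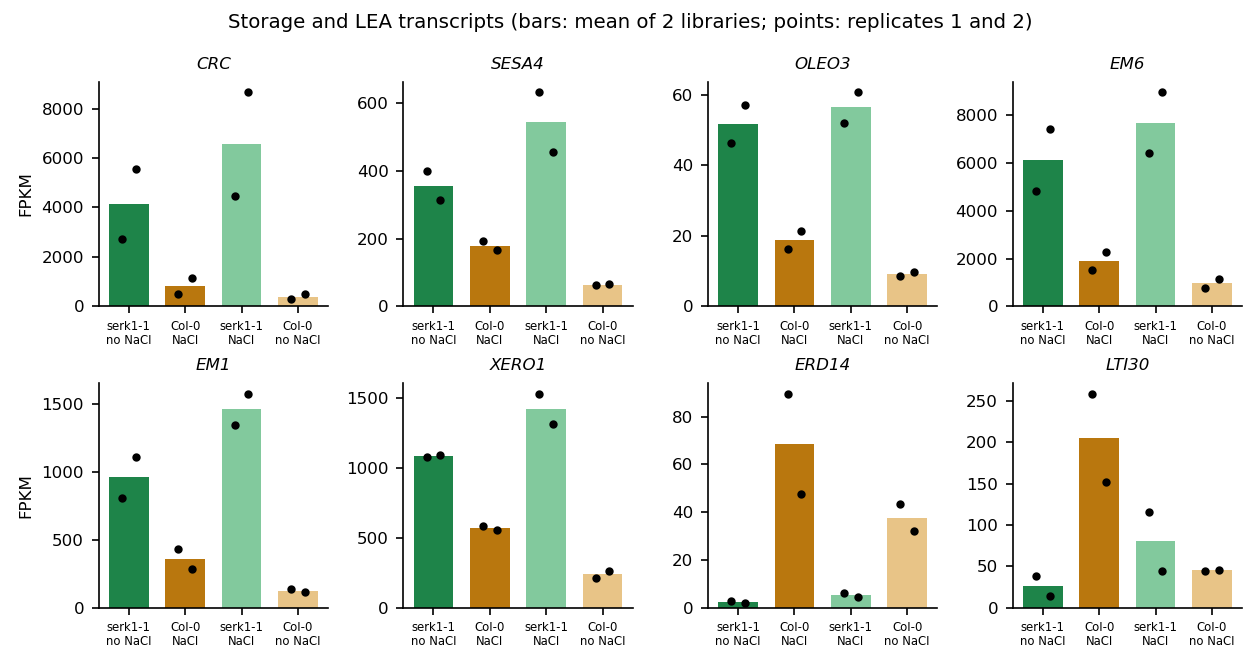
FPKM (vertical axes, from 0) of storage genes (CRC, SESA4, OLEO3) and LEA genes in serk1-1 without NaCl, Col-0 with NaCl, serk1-1 with NaCl and Col-0 without NaCl, with bars at the mean of 2 libraries and a point for each library. Unsalted serk1-1 lies above salted Col-0 in CRC, SESA4, OLEO3, EM6, EM1 and XERO1, and below it in ERD14 and LTI30.

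The RY element CATGCA, the site of B3 factors such as ABI3, was found on either strand in 16 of 17 promoters of the storage list (94.1%), against 6.80% of counted genes. The ABA-responsive element, searched as ACGTGGC or ACGTGTC, was found in 15 of 21 promoters of the LEA list (71.4%), against 8.33%. Over all counted genes the shares were 7.34% (RY) and 11.5% (ABA-responsive element) for higher genes, and 6.01% and 8.94% for lower genes. CRC, SESA5, EM6 and EM1 are shown as promoters of abundant storage and LEA transcripts, with RY elements in capitals for CRC and SESA5, and ABA-responsive elements in capitals for EM6 and EM1. SESA5 itself had 3167 and 5707 FPKM in unsalted serk1-1, against 1278 and 2105 FPKM in salted Col-0, and did not pass (1.37, limma adjusted p 0.11).
CRC (chr4:14087306-14087555, plus strand): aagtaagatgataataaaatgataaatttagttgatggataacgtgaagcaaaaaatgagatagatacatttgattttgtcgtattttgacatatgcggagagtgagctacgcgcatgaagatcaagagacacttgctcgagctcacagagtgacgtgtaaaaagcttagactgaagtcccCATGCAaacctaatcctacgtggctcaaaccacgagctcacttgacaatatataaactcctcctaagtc
SESA5 (chr5:22239188-22239437, minus strand): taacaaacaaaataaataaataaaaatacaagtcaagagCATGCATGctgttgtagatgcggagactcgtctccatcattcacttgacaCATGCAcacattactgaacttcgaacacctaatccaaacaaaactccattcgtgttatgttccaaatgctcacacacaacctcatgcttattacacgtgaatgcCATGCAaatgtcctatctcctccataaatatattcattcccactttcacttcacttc
EM6 (chr2:16780369-16780618, minus strand): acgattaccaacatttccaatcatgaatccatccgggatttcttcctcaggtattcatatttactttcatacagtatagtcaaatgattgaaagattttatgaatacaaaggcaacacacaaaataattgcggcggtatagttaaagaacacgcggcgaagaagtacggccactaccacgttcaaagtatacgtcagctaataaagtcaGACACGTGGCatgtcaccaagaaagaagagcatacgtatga
EM1 (chr3:19214472-19214721, plus strand): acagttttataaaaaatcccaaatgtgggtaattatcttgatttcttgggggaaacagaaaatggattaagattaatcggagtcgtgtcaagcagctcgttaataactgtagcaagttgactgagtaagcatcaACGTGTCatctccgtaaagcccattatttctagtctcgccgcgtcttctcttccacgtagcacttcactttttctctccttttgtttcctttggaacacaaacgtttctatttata

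EPR1, an extensin-like gene of the endosperm that weakens before the root emerges, was the higher gene with the largest difference among all listed genes. It had 1786 and 1355 FPKM in unsalted serk1-1, against 250 and 232 FPKM in salted Col-0 (2.69 ± 0.24, limma adjusted p 0.0052). Both Col-0 groups were low (212 and 177 FPKM in Col-0 without NaCl) and both serk1-1 groups high. Another endosperm gene, the ABA exporter ABCG31, was lower, with 1.08 and 1.36 FPKM in unsalted serk1-1, against 5.06 and 4.95 FPKM in salted Col-0 (-1.44, limma adjusted p 0.017). The 6 endosperm markers summed to 1960 and 1468 FPKM in unsalted serk1-1, against 364 and 295 FPKM in salted Col-0, and EPR1 made up most of each sum. The other counted markers, MFT and MAN7, were not called.

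Of the 8 seed coat markers 1 was counted (MUM4, not called), 4 were listed at 0 in all 8 libraries (TT3, BAN, TT10 and STK), and the 8 summed to 1.53 and 1.07 FPKM in unsalted serk1-1, against 5.22 and 2.85 FPKM in salted Col-0. The 5 root epidermis markers summed to 1.79 and 1.66 FPKM in unsalted serk1-1, against 1.56 and 0.74 FPKM in salted Col-0, with RSL4, EXPA7 and COBL9 at 0 throughout. The part of cell type composition in the differences was not tested.

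Among photosynthesis genes 13 of 24 were counted, 2 were higher and 0 lower. RBCS1A, the small subunit of Rubisco, had 370 and 273 FPKM in unsalted serk1-1, against 74.6 and 82.7 FPKM in salted Col-0 (2.00 ± 0.22, limma adjusted p 0.0078), and PSBP1, of photosystem II, differed by 0.95. The other Rubisco and light-harvesting genes were low, and reads of RBCS and LHCB family members may be shared. The superoxide dismutase gene CSD2, of the chloroplast, had 254 and 336 FPKM in unsalted serk1-1, against 105 and 108 FPKM in salted Col-0 (1.45 ± 0.21, limma adjusted p 0.013). It was the 1 higher gene among 18 counted of the oxidative stress list, in which 2 were lower, against 5.49% higher and 8.59% lower of all counted genes.

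Of 25 gibberellin genes 17 were counted, with 2 higher and 0 lower, against 5.49% and 8.59% of all counted genes. Of 13 whose means reached 5 FPKM in both groups, 6 lay within 2-fold, against 40.7% of all such genes. RGL3, a DELLA repressor of gibberellin response, had 44.9 and 41.4 FPKM in unsalted serk1-1, against 15.6 and 7.76 FPKM in salted Col-0 (1.87 ± 0.41, limma adjusted p 0.030). KAO1, an oxidase of gibberellin synthesis, had 20.4 and 22.0 FPKM in unsalted serk1-1, against 8.96 and 8.23 FPKM in salted Col-0 (1.21 ± 0.19, limma adjusted p 0.015). The receptor gene GID1C, the synthesis genes KO, KAO2 and GA20OX3, the DELLA gene GAI and GASA2 lay within 2-fold. GA3OX1 had 1.02 and 0.69 FPKM in unsalted serk1-1, against 1.74 and 0.38 FPKM in salted Col-0, and GA3OX2 had at most 0.26 FPKM in these 4 libraries and was not tested.

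**Figure D4:**
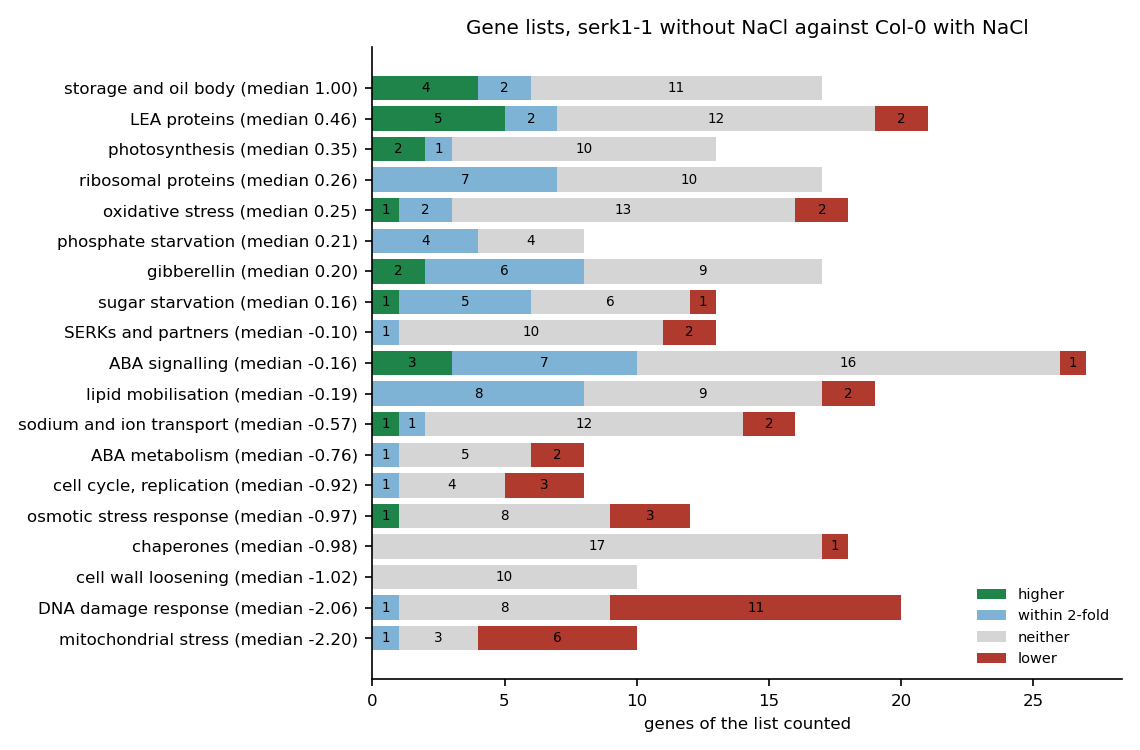
Number of counted genes of 19 lists with at least 5 counted genes (horizontal axis) that were higher, within 2-fold, neither or lower in serk1-1 without NaCl than in Col-0 with NaCl, ordered by the list's median log2 difference. Storage genes are at the top with 4 higher and 0 lower of 17, and DNA damage (11 lower of 20) and mitochondrial stress (6 lower of 10) at the bottom.

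Of 20 listed genes of sodium and potassium transport 16 were counted, 2 were lower, 1 higher and 1 within 2-fold, with a median of -0.57 over the listed genes. Of all counted genes 8.59% were lower and 5.49% higher. NHX3, a vacuolar sodium and potassium exchanger, had 49.5 and 54.0 FPKM in unsalted serk1-1, against 17.5 and 15.9 FPKM in salted Col-0 (1.58 ± 0.17, limma adjusted p 0.0078), following genotype in the other groups. The potassium channel gene AKT1 (-0.998) and the endosomal exchanger gene NHX6 (-1.21) were lower.

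Of the salt overly sensitive pathway, which exports sodium, the exporter gene SOS1 had 5.78 and 4.17 FPKM in unsalted serk1-1, against 9.98 and 7.91 FPKM in salted Col-0 (-0.74, limma adjusted p 0.092). The calcium sensor gene SOS3 had 4.41 and 3.20 FPKM in unsalted serk1-1, against 10.1 and 6.01 FPKM in salted Col-0 (-0.89, limma adjusted p 0.088), and the kinase gene SOS2 2.76 and 3.13 FPKM in unsalted serk1-1, against 2.79 and 1.97 FPKM in salted Col-0. SOS1 and SOS3 did not overlap between the groups and yet did not pass. HKT1 was listed at 0 in all 8 libraries, and CBL10 did not exceed 0.20 FPKM.

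Among SERK1 and its receptor partners 13 of 19 were counted, 2 were lower and 0 higher, with a median of -0.10 that was 0.04 with median-of-ratios scaled values and 0.16 with quantile normalization. PSKR1, the phytosulfokine receptor, had 11.1 and 10.8 FPKM in unsalted serk1-1, against 27.3 and 22.9 FPKM in salted Col-0 (-1.12 ± 0.20, limma adjusted p 0.018). BIR1, a receptor-like kinase that binds BAK1, had 22.3 and 19.5 FPKM in unsalted serk1-1, against 37.7 and 35.0 FPKM in salted Col-0 (-0.77, limma adjusted p 0.038). BAK1, the co-receptor of the same family as SERK1, had 25.8 and 27.7 FPKM in unsalted serk1-1, against 49.3 and 37.7 FPKM in salted Col-0, without overlap, and did not pass (-0.67, limma adjusted p 0.063).

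Lipid mobilisation, the breakdown of seed oil by beta-oxidation and the glyoxylate cycle, had all 19 genes counted, of which 2 were lower and 0 higher. Of 18 whose means reached 5 FPKM in both groups, 8 lay within 2-fold. These counts are near the shares over all genes, 8.59% lower and 40.7% within 2-fold. Its median was -0.19, and 0.02 after median-of-ratios scaling. The acyl-CoA oxidase gene ACX2 had 85.1 and 56.7 FPKM in unsalted serk1-1, against 309 and 258 FPKM in salted Col-0 (-2.01 ± 0.30, limma adjusted p 0.013), and the lipase gene SDP1 48.4 and 40.6 FPKM in unsalted serk1-1, against 92.9 and 86.2 FPKM in salted Col-0 (-0.997, limma adjusted p 0.022). ICL, isocitrate lyase, the most abundant of the list, had 12534 and 15465 FPKM in unsalted serk1-1, overlapping 8190 and 12909 FPKM in salted Col-0.

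Of 18 counted genes of the chaperone list, which also holds transcription factors, 1 was lower, 0 were higher and 0 within 2-fold. The lower gene was DREB2C, annotated as a DNA-binding protein and not a chaperone. The median was -0.98, but 0.12 without replicate 2 of salted Col-0, the library with the high chaperone sum. HSP17.6II, for example, had 25.4 and 39.5 FPKM in unsalted serk1-1, against 12.4 and 570 FPKM in salted Col-0. Of 10 counted genes of cell wall loosening 0 were called by limma, 1 was higher and 2 lower at an unadjusted p under 0.05, and 0 were bounded by 2-fold. EXPA1, an expansin, had 73.5 and 12.2 FPKM in unsalted serk1-1, against 261 and 21.3 FPKM in salted Col-0.

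Outside the lists, the largest lower differences included genes of unknown function. AT2G01422, a non-coding RNA gene, had 12.5 and 9.89 FPKM in unsalted serk1-1, against 393 and 375 FPKM in salted Col-0 (-4.99 ± 0.19, limma adjusted p 0.0002). AT5G49480, annotated as a calcium-binding protein, had 25.6 and 15.1 FPKM in unsalted serk1-1, against 337 and 534 FPKM in salted Col-0 (-4.36 ± 0.37, limma adjusted p 0.0052). Both were low in serk1-1 and high in Col-0 with either medium.

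AT4G33930, a cupredoxin, had 1.48 and 0.66 FPKM in unsalted serk1-1, against 38.0 and 27.8 FPKM in salted Col-0 (-4.04), and its level in the remaining groups was between these, from 5.57 to 10.6 FPKM. SRO3 (-4.00), the zinc finger gene PMZ (-3.99) and AT5G65300 (-3.93) were the other genes with the largest lower differences, and their replicates of salted Col-0 differed widely: PMZ had 12.6 and 5.57 FPKM in unsalted serk1-1, against 272 and 81.3 FPKM in salted Col-0.

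Of the largest higher differences, AT2G15960, annotated as a stress-induced protein, had 54.9 and 137 FPKM in unsalted serk1-1, against 0.63 and 14.7 FPKM in salted Col-0 (4.12 ± 1.07, limma adjusted p 0.046). DGR1, a cell wall protein of the DUF642 family, had 52.1 and 45.4 FPKM in unsalted serk1-1, against 1.62 and 11.96 FPKM in salted Col-0 (3.09 ± 0.63, limma adjusted p 0.025). In both, the replicates of salted Col-0 lay far apart. AT3G10200, a methyltransferase, was steadier, with 27.9 and 27.1 FPKM in unsalted serk1-1, against 1.65 and 3.48 FPKM in salted Col-0 (3.05 ± 0.29, limma adjusted p 0.0060).

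Further genes of this kind were AT5G35935 (2.65), the hydrolase gene AT4G24730 (2.61) and the RING/U-box gene AT2G27940 (2.49). The list also held 3 structural RNAs: AT7SL-1, the RNA of the signal recognition particle (2.95), and the U3 small nucleolar RNAs U3D (2.73) and U3B (2.6). AT7SL-1 had 27.9 and 42.4 FPKM in unsalted serk1-1, against 1.53 and 7.30 FPKM in salted Col-0, and 14.0 and 19.7 FPKM in serk1-1 with NaCl.

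The most abundant transcript bounded by 2-fold was AT5G60390, a translation elongation factor, with 2506 and 1798 FPKM in unsalted serk1-1 and 2307 and 1949 FPKM in salted Col-0 (log2 difference 0.00, interval -0.80 to 0.80). Its log2 difference was 0.21 with median-of-ratios scaled values and -0.54 with quantile normalization. Of 17 listed ribosomal protein genes 7 lay within 2-fold, a share near the 40.7% of all eligible genes, 10 were neither called nor bounded, and 0 were called by limma (2 higher and 0 lower at an unadjusted p under 0.05), with a median of 0.26. Of the 10 most abundant bounded genes, 5 encode ribosomal proteins (AT3G09200, EMB2296, AT5G20290, BBC1 and AT2G34480). AT3G09200 had 1729 and 1586 FPKM in unsalted serk1-1 and 1436 and 1389 FPKM in salted Col-0. AT3G09200 was at similar values in the remaining groups, with 1557 and 1512 FPKM in serk1-1 with NaCl and 1569 and 1623 FPKM in Col-0 without NaCl.

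In other bounded genes the groups left out of the comparison lay elsewhere. The dehydrin gene AT2G21490 had 1281 and 1145 FPKM in unsalted serk1-1 and 1448 and 1334 FPKM in salted Col-0 (interval of the log2 difference -0.80 to 0.40). It had 2184 and 1816 FPKM in serk1-1 with NaCl, and 519 and 555 FPKM in Col-0 without NaCl. AT1G04560, an AWPM-19-like membrane protein, had 1700 and 1661 FPKM in unsalted serk1-1 and 1401 and 1276 FPKM in salted Col-0 (-0.28 to 0.94). It had 2882 and 2448 FPKM in serk1-1 with NaCl, and 525 and 540 FPKM in Col-0 without NaCl. In both, the unsalted mutant lay within 2-fold of the salted wild type, but their values did not overlap. The differences moved with the scaling. For AT2G21490 the log2 difference was 0.01 with median-of-ratios scaled values and -0.65 with quantile normalization. For AT1G04560 it was 0.54 and -0.09. Intervals under these scalings are not given here. In both genes the unsalted mutant lay above the unsalted wild type and below the salted mutant.

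LEA14 followed the same order, with 126 and 116 FPKM in unsalted serk1-1 and 160 and 157 FPKM in salted Col-0 (-0.88 to 0.10), 300.2 and 215 FPKM in serk1-1 with NaCl, and 49.4 and 56.6 FPKM in Col-0 without NaCl. TPS8, of trehalose phosphate metabolism, had 72.0 and 72.1 FPKM in unsalted serk1-1 and 80.8 and 81.2 FPKM in salted Col-0. PARP3 had 98.6 and 63.0 FPKM in Col-0 without NaCl, and 355 and 292 FPKM in serk1-1 with NaCl. GASA2, a gibberellin-regulated gene, had 29.6 and 30.4 FPKM in unsalted serk1-1 and 30.2 and 39.3 FPKM in salted Col-0 (-0.73 to 0.35), and 8.70 and 12.4 FPKM in Col-0 without NaCl. ABA1 had 76.9 and 66.6 FPKM in unsalted serk1-1 and 64.1 and 64.9 FPKM in salted Col-0 (-0.26 to 0.56), and 39.3 and 40.1 FPKM in Col-0 without NaCl.

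The opposite order was found in FSD1, a superoxide dismutase, and SPX1, a sensor of phosphate status. FSD1 had 5.14 and 8.44 FPKM in unsalted serk1-1 and 4.76 and 5.80 FPKM in salted Col-0 (-0.38 to 0.95), against 21.0 and 20.3 FPKM in Col-0 without NaCl. In serk1-1 with NaCl FSD1 was lowest, with 1.11 and 1.66 FPKM. SPX1 had 24.2 and 13.2 FPKM in unsalted serk1-1 and 12.5 and 24.8 FPKM in salted Col-0 (-0.93 to 0.97), against 56.5 and 90.5 FPKM in Col-0 without NaCl. Of 8 counted genes of phosphate starvation 4 lay within 2-fold and 0 were called by limma, with 2 higher and 0 lower at an unadjusted p under 0.05. Of 13 sugar starvation genes 1 was higher (AILP1, 1.60) and 1 lower. Among the 12 eligible of them 5 lay within 2-fold, against 40.7% of all eligible genes.

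**Figure D5:**
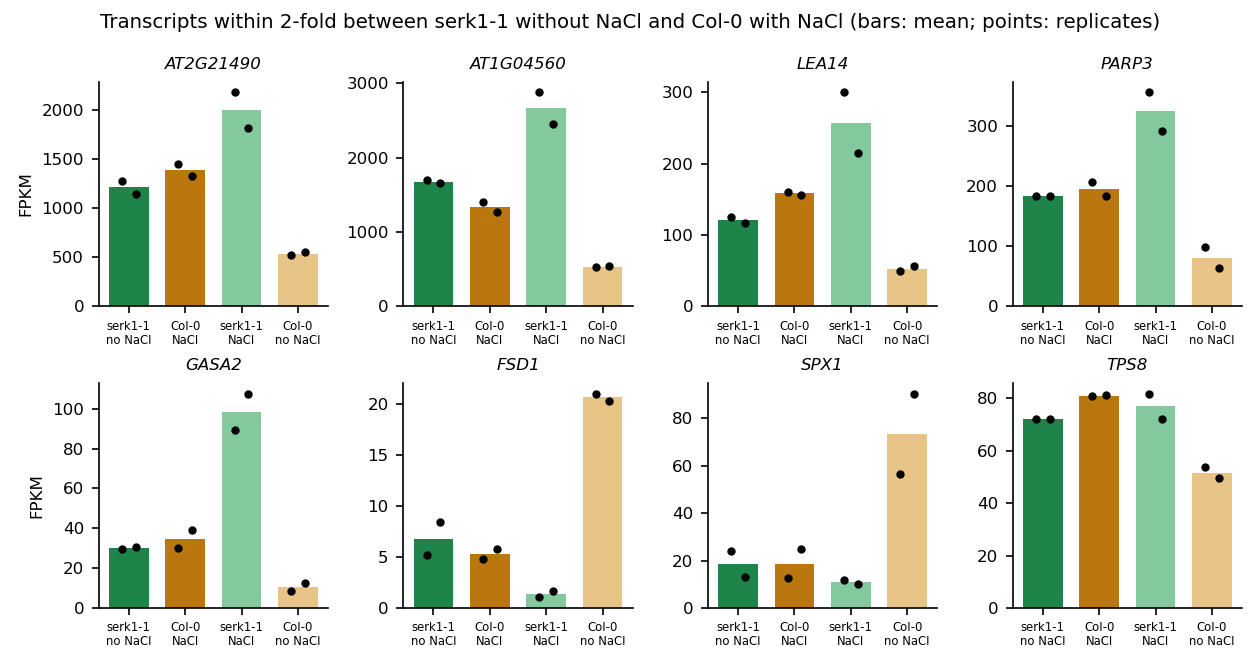
FPKM (vertical axes, from 0) of 8 genes whose 95% interval lay within 2-fold between serk1-1 without NaCl and Col-0 with NaCl, shown beside serk1-1 with NaCl and Col-0 without NaCl, with bars at the mean of 2 libraries and a point for each library. The 2 left bars are at like heights in each panel, while Col-0 without NaCl is lower in AT2G21490, AT1G04560, LEA14, PARP3 and GASA2 and higher in FSD1 and SPX1.

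The wild type's own response to salt gave 7 called genes in an earlier analysis of these data, which used the salted Col-0 libraries, so their levels are a description without a test. ASN1, an asparagine synthetase raised by sugar starvation, had 18.9 and 30.3 FPKM in unsalted serk1-1, overlapping 36.8 and 27.2 FPKM in salted Col-0, while Col-0 without NaCl had 4.85 and 4.46 FPKM. AT3G15450 had 83.9 and 54.5 FPKM in unsalted serk1-1, against 171 and 161 FPKM in salted Col-0 and 24.2 and 16.4 FPKM in Col-0 without NaCl. The glyoxalase gene GLYI7 had 20.3 and 17.9 FPKM in unsalted serk1-1, against 40.2 and 34.8 FPKM in salted Col-0 and 8.96 and 10.2 FPKM in Col-0 without NaCl. In AT3G15450 and GLYI7 the unsalted mutant stood between the wild-type groups.

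Of the genes that were low in salted Col-0, G3PP1, a glycerol-3-phosphate transporter, had 3.42 and 3.84 FPKM in unsalted serk1-1, against 2.08 and 2.69 FPKM in salted Col-0 and 27.74 and 23.55 FPKM in Col-0 without NaCl. PAP17, a purple acid phosphatase, had 18.3 and 11.3 FPKM in unsalted serk1-1, against 6.11 and 10.1 FPKM in salted Col-0 and 104 and 68.1 FPKM in Col-0 without NaCl. For both, the unsalted mutant lay above the salted wild type, without overlap, and far below the unsalted wild type. AT4G30097 and AT5G35688 were listed at 0 in unsalted serk1-1. AT4G30097 had 8.78 and 6.68 FPKM and AT5G35688 4.19 and 6.32 FPKM in salted Col-0, and both were at 0 in Col-0 without NaCl too.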

How the data were processed

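Total RNA of whole seeds was sequenced as paired-end TruSeq libraries on a HiSeq2500, per the labels' protocols. The authors deposited 1 table with an FPKM value for every gene and library. Per the submitters' processing notes they used FastQC 0.10.1, TopHat2, Cufflinks 2.1.1 and the TAIR10 genome. Not given in the sources used here are the annotation, the TopHat2 version, the strand setting and how multiply matching reads were treated. Without strand, reads of overlapping or antisense genes cannot be told apart. FPKM are relative to a library's mapped fragments, so an abundant transcript class lowers the others. The depth is unknown and no counting error can be given. The titles of serk1-1 samples also hold the words wild type, and the genotype label was used.

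The 15336 genes that reached 1 FPKM in 2 or more of the 8 libraries were fitted in R 4.3.3 with limma 3.58.1 on log2(FPKM + 1) as 4 group means (residual df 4, prior df 3.48, mean-variance trend), with Benjamini-Hochberg adjustment over all of them. P-values measure the spread between these libraries. With 2 libraries against 2, no exchange of labels can reach 0.05. A gene was called within 2-fold where its moderated 95% interval lay between -1 and 1 and both means were at least 5 FPKM. A fold on this scale understates changes of low genes, and no fold is given against a group at 0. Whether a listed 0 is a failed estimate cannot be told from the table.

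The genes compared, the lists and the tests were chosen with earlier results of these data known. Named genes were the 10 largest called differences in each direction with non-overlapping values, up to 4 genes per list by p and 2 within 2-fold, the 10 most abundant within 2-fold, a fixed set of seed and salt genes, and 7 genes of the salt effect in Col-0. Further list members were named after their values were seen. The value of 1 listed gene is not reported here. Names and promoters are from RefSeq TAIR10.1, which matched 32815 of 33279 loci by identifier. Alternatives were pseudocounts of 0.1 and 0.5, filters, scalings, variance models, the groups fitted, a replicate block and each library left out. Scripts were checked on simulated data. Python 3.11.15 and matplotlib 3.10.9 drew the figures.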

Additional observations from a re-analysis of the deposited data

How the results depend on the processing

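The counts of 790 higher and 1235 lower genes moved with the processing, and the count within 2-fold (3974) less so. With every gene above 0 tested, 484 were higher and 746 lower, and in a fit of only the groups compared 250 and 540. Quantile normalization gave 1496 higher genes. With the replicate number as a block 2523 were higher and 4036 lower, and the block with median-of-ratios scaling, an alternative chosen after seeing the data, gave 3617 and 3001. The block called 1 higher and 5 lower of the 10 counted cell wall genes, against 0 without it, and 5 lower genes of the chaperone list, against 1. The labels do not say that a number marks a shared batch. Deviations of same-numbered libraries correlated with r = 0.397 between unsalted serk1-1 and salted Col-0, and from 0.427 to 0.720 between the other pairs of groups. Leaving out each library gave 0 to 571 higher, 3 to 1348 lower and 2265 to 3760 within 2-fold. The causes were not tested. No named gene that was called reversed its direction, which leaving out a library cannot do where values do not overlap. Of the 323 named genes counted, 83 were called. In the counts that follow, a gene that was not called and stayed so is among those kept, so the kept results do not measure how stable the calls were. For the single named genes, leaving out a library kept 2327 results on their side of the threshold, weakened 248 and strengthened 9, and the other alternatives kept 3523, weakened 64 and strengthened 242. The depth is unknown, and its part in the smaller share of calls among low genes was not tested.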
